A study of Mus musculus with 3 samples.

Results

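YUMM1.1, a mouse melanoma cell line, was compared with the lines YUMM2.1 and YUMM1.7, and the genes that set it apart from both were described. A gene was a member when its log2(FPKM + 1) in YUMM1.1 lay 2 or more above, or 2 or more below, its value in each of the other lines, which is 4-fold on that scale. FPKM are fragments scaled by transcript length and by library size, so levels can be set side by side between genes. Of 11741 gene symbols that reached 1 FPKM in 1 line or more, 135 were members. YUMM1.1 was higher than both lines for 68 of them (0.579% of the genes) and lower than both for 67 (0.571%).

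The series deposited bulk RNA sequencing of total RNA from 3 mouse melanoma lines, with 1 library per line. YUMM stands for Yale University Mouse Melanoma, a set of lines grown from tumors of genetically engineered mice. As background that the labels do not give, YUMM1.1 and YUMM1.7 came from Braf-mutant melanomas of engineered mice, and YUMM2.1 from a cross that also stabilised beta-catenin. The labels give the line only, with no genotype, treatment, passage or animal. With 1 library per line, and no word on separate cultures, no difference between lines can be set against a spread between cultures, and no p-value is given. In bulk RNA, fewer cells of a type and less RNA per cell cannot be told apart.

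Melanocytes arise from the neural crest, an embryonic population that also yields Schwann cells, the glia of peripheral nerves. Melanoma cells can lose pigment genes and take up a neural crest-like pattern with the receptor Ngfr, or a mesenchymal pattern with matrix and contractile genes. These patterns are background to the gene groups below and were not used to choose the members.

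Steps between low FPKM values corresponded to about 68.3 M scaled fragments in YUMM1.1, 87.3 M in YUMM2.1 and 46.0 M in YUMM1.7. At those depths 3 fragments on a 2 kb transcript amount to 0.0220, 0.0172 and 0.0326 FPKM, which covers counting error only. The lines' FPKM summed to 1041960, 693156 and 1827835 in that order. As deposited, the median difference over all expressed genes was 0.05 against YUMM2.1 and -0.02 against YUMM1.7 (log2). After scaling to a common sum those medians became -0.43 and 0.62. Under the common sum 50 of the 68 higher and 54 of the 67 lower members still met the rule. Members that did not included Tppp3, Lpcat2, Gas7, L1cam, Rnase4, Erbb3, Lims2, S100b, Trp53inp2, Fbxo7, Scd1, Dhrs1, Plat, Aldh1a3, Klk9 and V1rd20 among the higher, and Ifi47, Ociad2, H2-M3, Hoxd8, Hebp2, Tmem173, Rftn2, Hspb2, Serpinb2, Zeb1, Mmp2 and Gsta3 among the lower. At a pseudocount of 5 in place of 1, which weakens low genes, 28 of the 68 and 18 of the 67 still met the rule. Among genes described below these included Ecel1, Ngfr, Moxd1, S100b, Tubb3, Nxph4, Ntm, Col15a1, Col6a1, Ly6a, Ly6c1, Cdkn2b and Limk1 on the higher side, and Cyba, Bgn, Acta2, Tagln, Spp1, Plau, Bst2, Cav1, Pcolce, Gstm1 and Lgals3 on the lower side. Those outside it at that setting included Erbb3, L1cam, Cnp, Casp1, Scd1 and Plat on the higher side. On the lower side they included Myl9, Nptx1, Hoxb7, Hoxd8, Lama5, Rcn3, Fkbp10, Crlf2, Cxcl12, H2-M3, Tmem173, Zeb1, Mmp2, Gsta3, Gsta4, Pir, F2r and P2ry2. Values below are in the order YUMM1.1, YUMM2.1 and YUMM1.7.

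Markers of the labelled cell type were sparse. Of 9 melanocyte markers in the table, 1 reached 1 FPKM in YUMM1.1, 3 in YUMM2.1 and 0 in YUMM1.7. The marker at 1 FPKM or more in YUMM1.1 was Sox10, a neural crest transcription factor, at 107, 44.3 and 0.00821 FPKM. The pigment enzyme gene Tyrp1 and the receptors Kit and Ednrb were listed at 0 in YUMM1.1, and Mitf, the melanocyte regulator, stood at 0.188, 1.23 and 0.617 FPKM. Of 9 Schwann cell markers, 8, 8 and 2 reached 1 FPKM in the 3 lines, and their sum was 1008, 304 and 15.9 FPKM. That marker list includes the members Ngfr, Erbb3, S100b and L1cam. None of 4 endothelial and 5 keratinocyte markers reached 1 FPKM in any line.

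**Figure D1:**
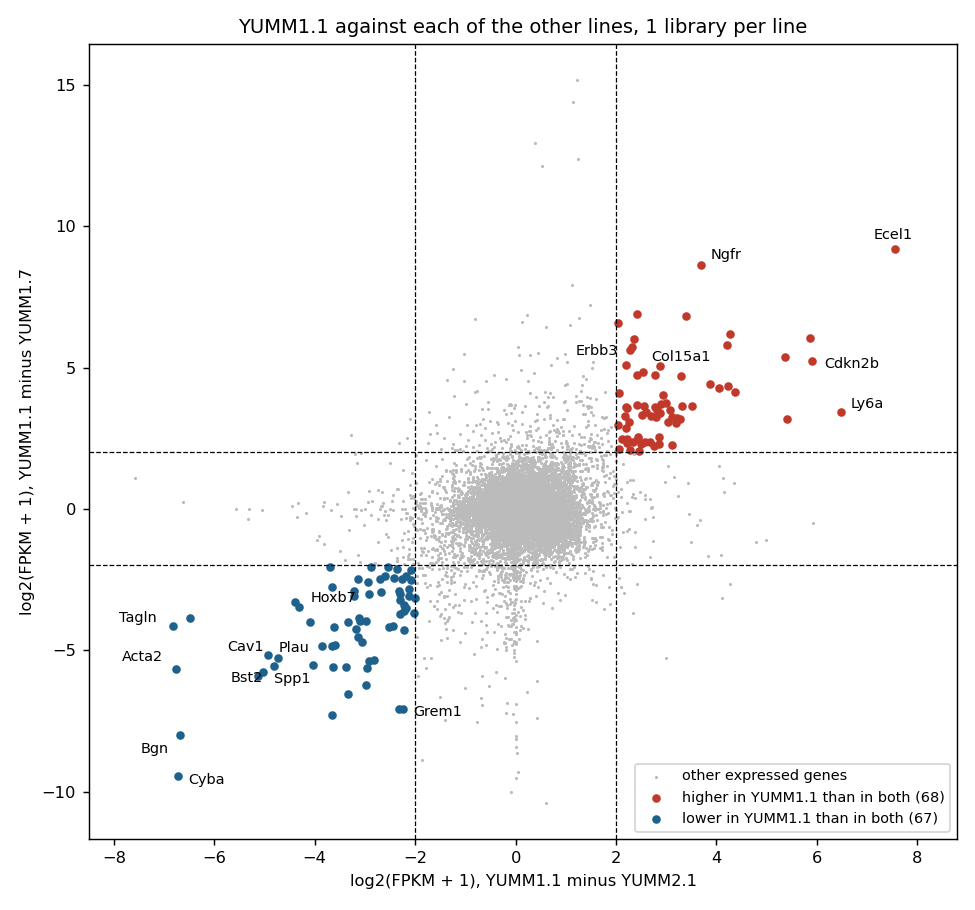
Each point is 1 of 11741 expressed genes, placed by the difference in log2(FPKM + 1) between YUMM1.1 and YUMM2.1 (x axis) and between YUMM1.1 and YUMM1.7 (y axis). Dashed lines mark 2 and -2. The 68 red points are higher in YUMM1.1 than in both lines and the 67 blue points are lower. Ecel1 lies farthest to the upper right, and Cyba and Bgn lie farthest to the lower left.

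Most members sat nearer to YUMM2.1 than to YUMM1.7. The smaller of a member's differences was the one from YUMM2.1 for 52 of the 68 higher genes (76.5%) and for 50 of the 67 lower genes (74.6%). The same held for 60.6% of all 3210 genes with their highest value in YUMM1.1 and for 55.1% of all 2809 with their lowest. The same rule set YUMM2.1 apart by 71 higher genes and 49 lower ones, and YUMM1.7 by 321 and 191. The smaller difference was 4 or more for 9 higher and 10 lower genes, and 3 to 4 for 15 and 19. It was 2 to 3 for the other 44 and 38.

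Higher members ranged from 4.03 to 644 FPKM in YUMM1.1, with medians of 35.8, 2.15 and 0.215 FPKM in the 3 lines. Both other lines were under 1 FPKM for 25 of the 68, 1 of them for 20, and neither for 23. The lower members had medians of 0.389, 11.6 and 23.6 FPKM, and 48 of the 67 were under 1 FPKM in YUMM1.1. In its highest line no member with a known transcript length rested on fewer than about 190.5 implied fragments in the higher group and 100.4 in the lower group.

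**Figure D2:**
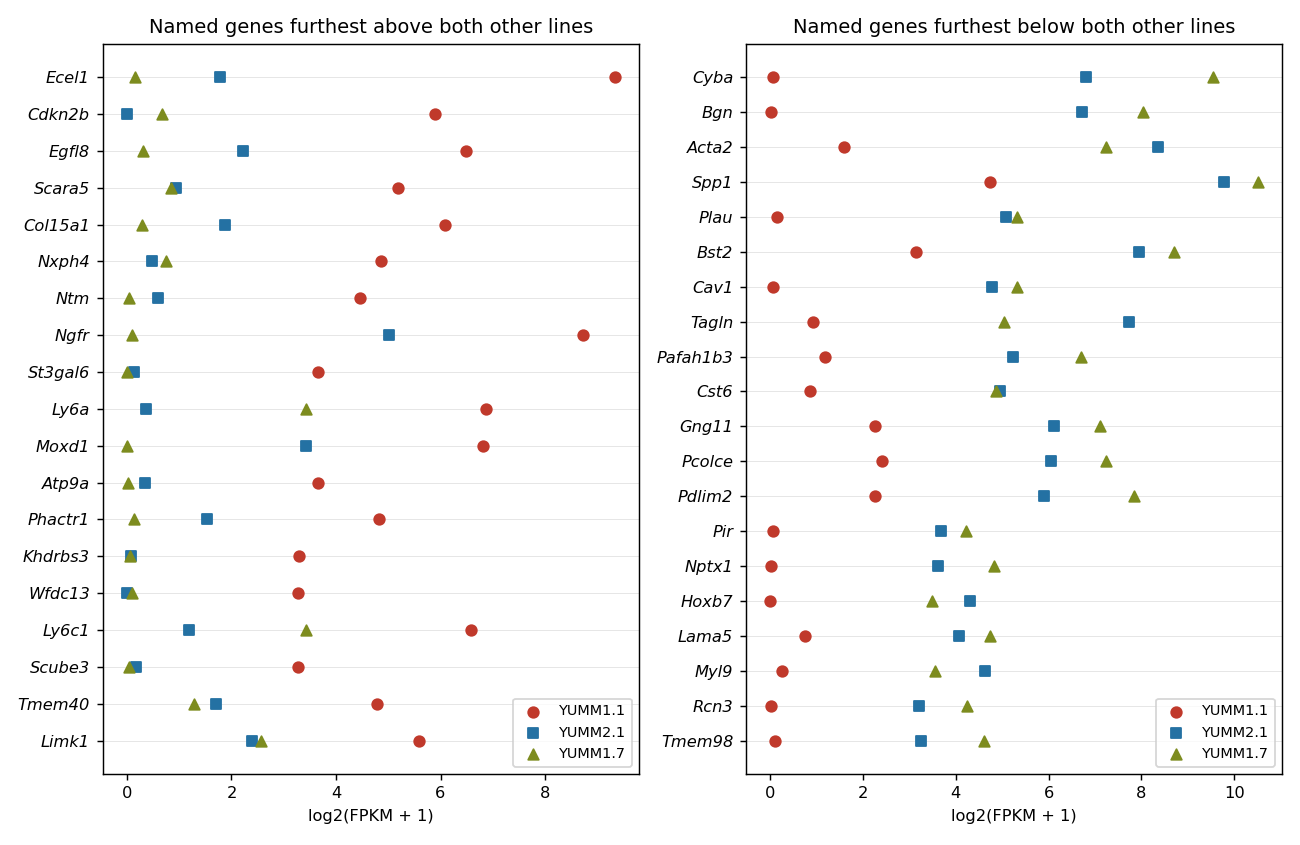
Members with the largest smaller difference above both lines (left panel) and below both lines (right panel) are drawn with 1 point per line on a log2(FPKM + 1) axis. Members whose symbols have the form of predicted genes, small RNAs or pseudogenes are left out, among them 2810405K02Rik, also called Prxl2b. In the left panel every YUMM1.1 point lies at least 3.03 to the right of both others, and in the right panel at least 3.14 to the left.

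Ecel1 stood farthest above both lines. It was placed on the neural crest and Schwann cell list with earlier results of these data known. Ecel1, a neuronal membrane metalloprotease needed for motor nerve terminals in mice, stood at 644, 2.42 and 0.116 FPKM. Its YUMM1.1 level was 266-fold that of YUMM2.1, and its smaller difference was 7.56. The RefSeq promoter window of Ecel1 (the 250 bases before the start, minus strand, chr1:87156357-87156606, GRCm38.p6) is shown because no member differed more. Capitals mark its single match to ACAAAG or ACAATG, letters that Sox proteins can bind, 210 bases before the start. Those letters were present in 25.2% of all promoters of that length, in 19.98% of those of expressed genes, in 15 of 44 matched higher members and in 8 of 41 matched lower members.
Ecel1: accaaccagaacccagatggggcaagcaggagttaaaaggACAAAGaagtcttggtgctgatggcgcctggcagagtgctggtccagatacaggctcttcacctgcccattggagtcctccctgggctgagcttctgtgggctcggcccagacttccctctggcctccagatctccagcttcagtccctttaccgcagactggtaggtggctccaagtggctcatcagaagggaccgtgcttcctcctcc

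Ngfr, the low-affinity neurotrophin receptor, stood at 421, 31.5 and 0.0643 FPKM. Its steps between lines were both wide, with YUMM2.1 between the other lines. The sorting receptor Sort1 was highest in YUMM2.1, at 10.4, 21.2 and 0.466 FPKM. Moxd1, a relative of dopamine beta-hydroxylase, stood at 111 and 9.71 FPKM and was listed at 0 in YUMM1.7.

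Among the members, myelin and glial genes other than Cnp followed the order of lines seen for Ngfr. S100b, a calcium-binding protein of glia, stood at 149.6, 31.8 and 3.38 FPKM. Erbb3, the neuregulin receptor that Schwann cells need, stood at 49.7, 9.50 and 0.0324 FPKM. L1cam, an adhesion molecule of axons and glia, stood at 52.5, 9.79 and 0.0203 FPKM. Cnp, a myelin enzyme, was lowest in YUMM2.1 instead, at 55.9, 5.52 and 10.9 FPKM, and its gene overlaps Dnajc7, whose reads may be shared.

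Of the 22 expressed genes on the neural crest and Schwann cell list, 8 were members, all higher in YUMM1.1. At a difference of 1 or more from both lines the list had 8 above and 1 below, beside 2.5% of all expressed genes above and 2.26% below. Those shares are the background for the count at a difference of 1 in every list below. The gene below was Gfra1, a GDNF co-receptor, at 1.76, 9.12 and 7.65 FPKM. The list's median difference was 0.33 against YUMM2.1 and 3.91 against YUMM1.7, so the list as a whole stood apart from YUMM1.7 more than from YUMM2.1. Pmp22, a myelin protein, was nearly level in the pair at 135 and 154 FPKM, with 12.2 in YUMM1.7. The whole list was drawn up with earlier results of these data known, and Ecel1, Moxd1 and Postn were placed on it for that reason.

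Some genes known from neurons were among the higher members. Tubb3, the neuronal beta-tubulin, stood at 230.3, 32.9 and 17.9 FPKM. Nxph4, a secreted ligand of neurexins, stood at 28.1, 0.400 and 0.670 FPKM. Ntm, an adhesion protein of growing axons, stood at 21.1, 0.510 and 0.0256 FPKM. All 3 were far above both lines, and Nxph4 and Ntm were under 1 FPKM outside YUMM1.1. The neuropeptide Npy was low by comparison, at 4.93, 0.0941 and 0.0588 FPKM. Aplp1, a relative of the amyloid precursor protein, stood at 5.20, 0.0454 and 0.209 FPKM. Plxnb3, a semaphorin receptor, stood at 10.51, 0.635 and 0.00709 FPKM and lies 81.3 kb from L1cam on the X chromosome. Among 36 expressed axon guidance genes, which do not include Plxnb3, 5 were 1 or more above both lines, 3 were below both, and none was a member. After scaling to a common sum 2 were above both and 4 below, so the balance turned round. The ephrin receptor Epha7 was among the 5 above as deposited, at 10.6, 3.11 and 0.0662 FPKM.

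Other genes known from neurons were lower or near 0. Nptx1, a secreted pentraxin of synapses, stood at 0.0137, 11.3 and 27.5 FPKM, which is lower in YUMM1.1 than in both lines. Eno2, the neuronal enolase, and Olfm1, a secreted olfactomedin, were lower as well. Eno2 stood at 0.241, 5.11 and 9.07 FPKM and Olfm1 at 1.53, 9.19 and 21.2 FPKM. A list of neuronal and axonal genes was drawn up after the members were seen and includes genes picked from them. Of its 19 expressed genes 10 were 1 or more above both lines and 3 below. The defining neuronal genes Snap25, Dcx and Elavl4 did not reach 1 FPKM in any line and were listed at 0 in YUMM1.1.

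Several higher members act on the cytoskeleton. Limk1, the kinase that inactivates cofilin, stood at 47.1, 4.22 and 4.91 FPKM. Phactr1, a phosphatase and actin regulator, stood at 27.5, 1.89 and 0.0963 FPKM. Both were higher in YUMM1.1, and the other lines were close to each other for Limk1 only. Further members of this kind were the tubulin-binding Tppp3 (90.5, 14.8 and 2.19 FPKM), the growth arrest-specific gene Gas7 (79.1, 14.6 and 0.254 FPKM) and the septin Sept5 (37.6, 4.995 and 6.45 FPKM). The Cdc42 effector Cdc42ep5, the coronin Coro2b, the focal adhesion adaptor Lims2, the GTPase-activating protein Arhgap28 and the axonemal dynein chain Dnaic2 were lower in level, from 4.03 to 13.5 FPKM in YUMM1.1. Tuba4a, an alpha-tubulin, went the other way at 1.76, 16.7 and 19.95 FPKM. The 18 expressed genes for tubulins and intermediate filaments had 4 that were 1 or more above both lines and 1 below, beside 2.5% and 2.26% of all expressed genes.

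Among secreted and matrix proteins, Egfl8, an EGF-like secreted protein, stood at 89.1, 3.68 and 0.237 FPKM, and its gene overlaps Agpat1. Scube3, a secreted protein of the same broad class, stood at 8.69, 0.122 and 0.0222 FPKM. Wfdc13, a small gene of the whey acidic protein type, had 8.73 FPKM in YUMM1.1 and 0.0706 FPKM in YUMM1.7, and was listed at 0 in YUMM2.1.

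Collagen genes were split by chain. Col15a1, a basement membrane collagen, stood at 66.8, 2.67 and 0.222 FPKM. Col6a1, a chain of microfibrillar collagen, stood at 227, 36.7 and 20.5 FPKM. These were the only collagen members among 21 expressed chains. At a difference of 1 there were 6 chains above both lines and 2 below, with 5 and 2 after scaling to a common sum. Just under the rule, the basement membrane proteoglycan Hspg2 stood at 124, 23.3 and 31.5 FPKM with a smaller difference of 1.94.

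Surface and inflammatory genes came next. Ly6a, known as Sca-1, stood at 115, 0.295 and 9.77 FPKM. Its neighbour Ly6c1, 46.0 kb away, stood at 94.9, 1.27 and 9.69 FPKM. For both, YUMM1.1 was highest and YUMM2.1 lowest, and reads may be shared between such similar genes. Of 6 expressed Ly6 genes, a list drawn up after the members were seen, 3 were 1 or more above both lines. Scara5, a ferritin receptor, stood at 35.2, 0.924 and 0.785 FPKM. The folate receptor gene Folr2 stood at 12.3, 1.32 and 0.328 FPKM. Casp1, the protease that matures interleukins in the inflammasome, stood at 30.8, 3.41 and 5.54 FPKM. The lysosomal membrane protein gene Gpr137b stood at 76.9, 10.96 and 7.05 FPKM, and its pseudogene Gpr137b-ps, which may share its reads, at 25.2, 2.87 and 4.67 FPKM.

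Cdkn2b, an inhibitor of the cyclin D kinases, had 58.5 FPKM in YUMM1.1 and 0.587 FPKM in YUMM1.7, and was listed at 0 in YUMM2.1. The neighbouring Cdkn2a was not a member, at 8.41 FPKM, listed at 0, and 5.84 FPKM. Mtap, the methionine salvage enzyme in the same region, was also listed at 0 in YUMM2.1 but had 59.4 and 83.7 FPKM in YUMM1.1 and YUMM1.7. Of these 3 neighbours, Cdkn2b alone was near 0 in both other lines. Nr4a1, an immediate early nuclear receptor, stood at 33.95, 3.35 and 1.60 FPKM. Aldh1a3, which makes retinoic acid, was just inside the rule at 36.5, 8.03 and 1.19 FPKM.

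Lipid enzymes included Scd1, the stearoyl-CoA desaturase, at 123, 27.7 and 21.1 FPKM. Lpcat2, a lysophospholipid acyltransferase, stood at 62.5, 10.9 and 1.40 FPKM. On a list of 18 expressed fatty acid genes drawn up after the members were seen, 3 were 1 or more above both lines and 0 below. For cholesterol synthesis, a list with no member, 3 of 21 were 1 or more above both and 0 below. Nsdhl, a sterol dehydrogenase, stood at 26.6, 7.93 and 8.31 FPKM, and Sqle, the squalene epoxidase, at 28.9, 12.0 and 12.5 FPKM. Of the 21, 15 had their highest value in YUMM1.1 and 1 its lowest, beside 3210 and 2809 of all 11741 expressed genes. The number 1 or more above both was 1 after scaling to a common sum and 2 after scaling to the upper quartile. The phosphatidate-forming kinase Dgka stood at 16.1, 1.90 and 0.379 FPKM. Its gene overlaps Pmel, a melanocyte marker not found by that name among the deposited symbols, so reads may be shared.

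Further higher members with gene names covered several roles. St3gal6, a sialyltransferase, stood at 11.6 and 0.102 FPKM and was listed at 0 in YUMM1.7. Atp9a, a phospholipid flippase, stood at 11.7, 0.276 and 0.0124 FPKM. Khdrbs3, an RNA-binding splicing factor, stood at 8.798, 0.0581 and 0.0487 FPKM. All 3 were therefore under 1 FPKM outside YUMM1.1. Tmem40, a membrane protein, stood at 26.6, 2.26 and 1.43 FPKM. The kallikrein Klk9 had its level shared with YUMM2.1 more than with YUMM1.7, at 101, 23.7 and 0.0807 FPKM. Pcdhgb1 and Pcdhgb6 are clustered protocadherins that share exons, and Pcdhgb6 stood at 5.08, 0.115 and 0.0562 FPKM. Dhrs1, Trp53inp2, Fbxo7, Rnase4, Cmtm5, Rai2, Lingo3, Vat1l, D0H4S114 and the vomeronasal receptor V1rd20 were also members, from 4.91 to 176 FPKM in YUMM1.1. Another 7 higher members were set aside by the form of their symbol as predicted genes, small RNAs or pseudogenes. They included 2810405K02Rik, also called Prxl2b, at 69.2, 0.205 and 0.0701 FPKM, and 1300014I06Rik, also called Pxdc1. Mir689-1 was among them at 40.1 FPKM and was listed at 0 in both other lines.

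**Figure D3:**
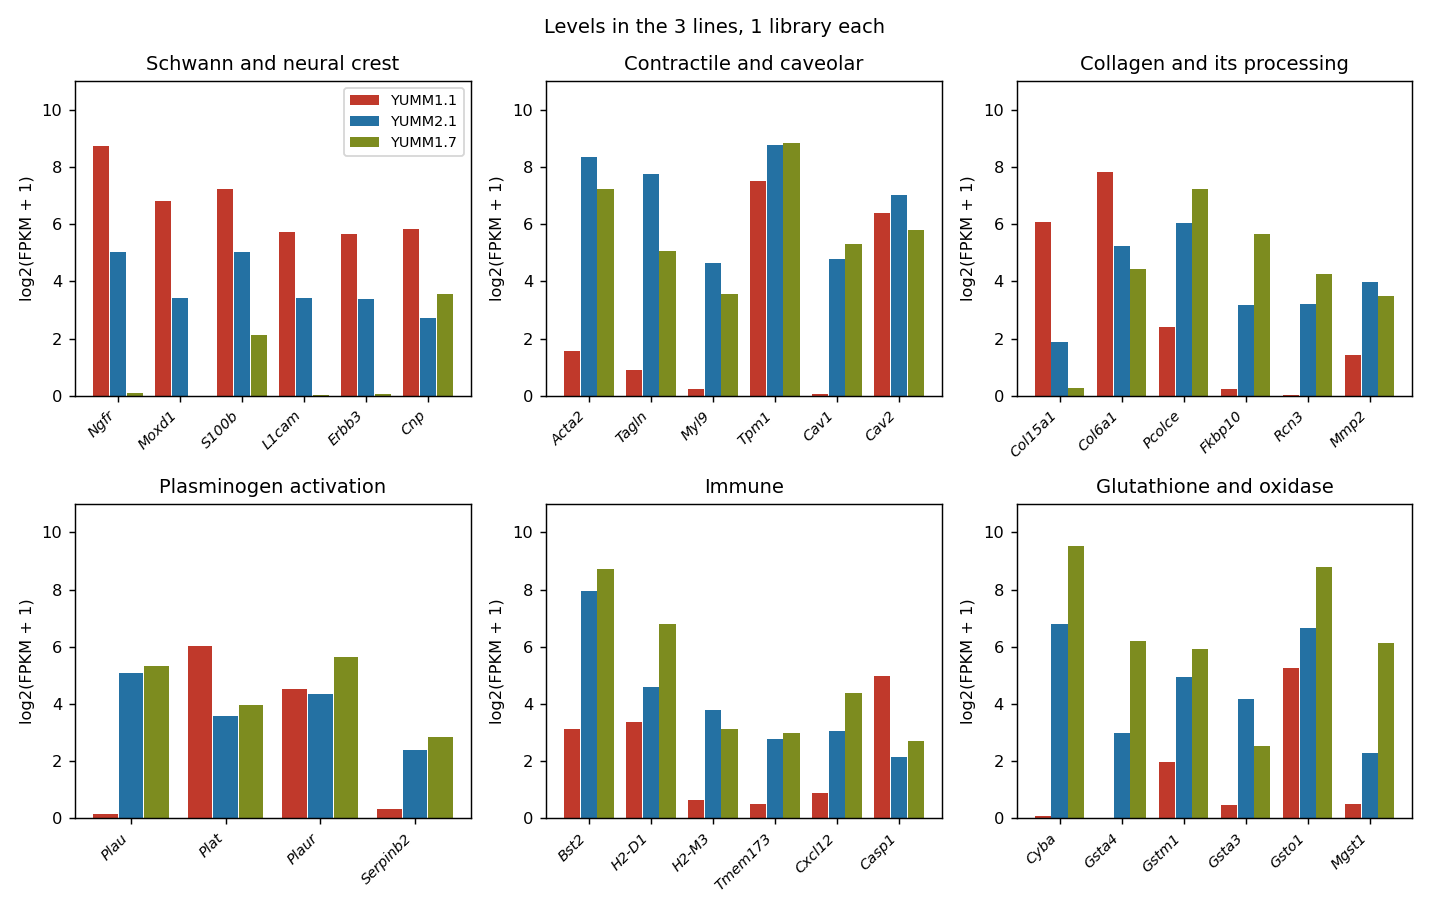
Bars give log2(FPKM + 1) from 0 in each line for genes of 6 groups, with 1 library per bar and no error bar. The neural crest panel draws members only, so its YUMM1.1 bars are the tallest by the rule. Genes of that list that were not members, such as Pmp22 and Gfra1, are not drawn. In the contractile and caveolar panel the YUMM1.1 bars are the shortest except for Cav2. There Acta2, Tagln, Myl9 and Cav1 are members, and Flna is not drawn.

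The members among smooth muscle contractile genes were all lower in YUMM1.1. Acta2, the smooth muscle actin, stood at 1.996, 326 and 149.6 FPKM. Tagln, an actin-binding protein of smooth muscle, stood at 0.886, 213 and 32.0 FPKM. Myl9, a myosin regulatory light chain, stood at 0.190, 23.9 and 10.7 FPKM. For each of the 3, YUMM2.1 was highest and YUMM1.1 lowest. Tagln overlaps Pcsk7, so some of its reads may belong there. Of 19 expressed contractile genes, 3 were members and 4 were 1 or more below both lines, with 0 above. The one that was no member was Tpm1, a tropomyosin, at 181, 436 and 454 FPKM. The list's median differences were -0.24 and -0.54, and broadly expressed members such as Flna (150.5, 133 and 102 FPKM) were not low in YUMM1.1. Of the 19, YUMM1.1 was lowest for 10 and highest for 3, beside 2809 and 3210 of all 11741 expressed genes. Summed over 5 smooth muscle markers the level was 2.91, 539 and 182 FPKM, nearly all of it from Acta2 and Tagln. The defining markers Cnn1, Myh11 and Des were under 0.2 FPKM in every line. Fibroblast markers summed to 0.944, 4.27 and 169 FPKM, so they were low in YUMM2.1 while Acta2, Tagln and Myl9 were highest there.

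The promoter of Myl9 (plus strand, chr2:156775214-156775463, GRCm38.p6, RefSeq) is shown because it was the only one of 41 matched lower members with a CArG box, the letters to which serum response factor binds. The box is in capitals and starts 161 bases before the start. A CArG box was present in 1.47% of all promoters of that length, in 1.41% of those of expressed genes and in 0 of 44 matched higher members.
Myl9: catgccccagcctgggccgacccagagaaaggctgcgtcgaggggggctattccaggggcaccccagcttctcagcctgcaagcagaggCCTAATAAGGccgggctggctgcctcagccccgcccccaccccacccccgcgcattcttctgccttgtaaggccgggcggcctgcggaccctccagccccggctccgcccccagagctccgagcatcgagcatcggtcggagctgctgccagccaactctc

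Cav1, the main coat protein of caveolae, stood at 0.0366, 26.5 and 39.0 FPKM. Its partner Cav2 did not follow, at 82.9, 129 and 54.1 FPKM, nor did the coat protein Ptrf, at 124, 55.4 and 114 FPKM. Plvap, a protein of caveolar diaphragms, stood at 0.669, 20.1 and 10.4 FPKM. Of 8 expressed caveolar genes, a list drawn up after the members were seen, as deposited Cav1 was 1 or more below both lines, and Pacsin2, a membrane-bending protein, was 1 or more above both at 26.9, 11.6 and 12.4 FPKM. After scaling to a common sum 2 were below both and 0 above.

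Matrix genes were among the members farthest below both lines. Bgn, the proteoglycan biglycan, stood at 0.0191, 104 and 261 FPKM. Spp1, the phosphoprotein osteopontin, stood at 25.8, 874 and 1460.3 FPKM. Bgn was at the level of a few fragments in YUMM1.1, whereas Spp1 was still well expressed there. Lama5, a laminin chain, stood at 0.680, 15.9 and 25.8 FPKM. Mmp2, a secreted gelatinase, stood at 1.67, 14.6 and 10.2 FPKM, while the membrane metalloproteinase Mmp15 was a higher member at 36.4, 4.07 and 0.126 FPKM. Of 33 expressed matricellular genes and proteoglycans, 7 were 1 or more below both lines and 1 above. The one above was Matn2, at 27.7, 6.49 and 10.3 FPKM, and fibronectin, Fn1, was among those below at 22.3, 68.5 and 154 FPKM.

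Genes that fold or trim collagen also appeared among the lower members. Pcolce, an enhancer of procollagen cleavage, stood at 4.29, 65.5 and 150.0 FPKM. Rcn3, a chaperone of the secretory pathway, stood at 0.0111, 8.21 and 18.0 FPKM. Fkbp10, a collagen prolyl isomerase whose gene overlaps Nt5c3l, stood at 0.192, 7.98 and 48.9 FPKM. YUMM1.1 was lowest for each and YUMM1.7 highest. The gene 1110036O03Rik, 0.978 kb from Fkbp10 and also called P3h4, stood at 0.443, 9.15 and 57.4 FPKM. The chaperone Serpinh1 did not share the pattern, at 663, 376 and 506 FPKM. On this list of 28 expressed genes, drawn up after the members were seen, 5 were 1 or more below both lines and 1 above. Dse, which modifies dermatan sulfate, Fstl1, a secreted follistatin relative, and Grem1, a BMP antagonist, were further members. Grem1 stood at 0.00970, 3.80 and 135 FPKM.

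The plasminogen activators went in opposite directions. Plau, the urokinase activator, stood at 0.104, 32.6 and 39.1 FPKM. Plat, the tissue activator, stood at 64.4, 10.9 and 14.6 FPKM. Serpinb2, an inhibitor of both, stood at 0.243, 4.29 and 6.19 FPKM. The urokinase receptor Plaur was nearly level between YUMM1.1 and YUMM2.1, at 21.8, 19.6 and 49.5 FPKM. Cst6, a secreted inhibitor of cysteine proteases, stood at 0.811, 29.9 and 27.9 FPKM.

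Cyba had the most negative smaller difference of all members, at -6.73. It encodes the membrane subunit that NADPH oxidases share, and stood at 0.0499, 110.5 and 741 FPKM. Its catalytic partner Nox4 stood at 0.655, 4.82 and 0.418 FPKM. The phagocyte partner Cybb was listed at 0 in YUMM1.1 and YUMM1.7 and stood at 0.00240 FPKM in YUMM2.1. The GTPase Rac1, which also serves these oxidases, was close to level at 181, 131 and 144 FPKM.

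The glutathione transferases Gstm1, Gsta3 and Gsta4 were members on the lower side. Gstm1 stood at 2.93, 29.8 and 59.9 FPKM, Gsta3 at 0.389, 17.1 and 4.72 FPKM, and Gsta4 was listed at 0 with 6.92 and 73.1 FPKM in the other lines. These enzymes join glutathione to reactive compounds, and reads may be shared among the similar genes of each class. The antioxidant and glutathione list also holds the oxidase genes Cyba and Nox4, and Cyba is among its genes below both lines. Of its 36 expressed genes, 12 were 1 or more below both lines and 0 above, beside 2.26% and 2.5% of all expressed genes. That count was 10 after scaling to a common sum and 11 after scaling to the upper quartile. Other transferases did not share the direction, with Gstp1 at 972, 406 and 1004 FPKM and Gstm5 at 32.2, 33.6 and 12.7 FPKM. Nqo1, a quinone reductase, was lowest in YUMM2.1, at 61.6, 2.23 and 397 FPKM. Pir, an iron-binding nuclear protein, stood at 0.0398, 11.8 and 17.7 FPKM, and the lactonase Pon3 at 0.0617, 8.93 and 6.91 FPKM.

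Immune genes among the lower members were led by Bst2, the interferon-induced protein tetherin, which holds virus particles at the cell surface. It stood at 7.81, 246 and 416 FPKM. Its promoter (minus strand, chr8:71537473-71537722, GRCm38.p6, RefSeq) is shown for the pair of overlapping matches to GAAA, any 2 bases and GAAA again, the letters of an interferon response element, which start 130 and 124 bases before the start. Capitals mark both. That motif was present in 2.98% of all promoters, in 3.05% of those of expressed genes, in 3 of the 41 matched lower members (Bst2, Spp1 and Rcn3) and in 2 of the 44 matched higher members.
Bst2: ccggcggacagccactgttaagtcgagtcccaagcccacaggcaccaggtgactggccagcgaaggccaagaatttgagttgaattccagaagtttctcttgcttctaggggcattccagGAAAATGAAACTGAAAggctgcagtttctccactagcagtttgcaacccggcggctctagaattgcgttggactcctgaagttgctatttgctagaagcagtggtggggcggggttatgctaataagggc

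Bst2 was the only member among 35 expressed interferon-stimulated genes, of which 3 were 1 or more below both lines and 0 above, beside 2.26% and 2.5% of all expressed genes. After scaling to a common sum 5 were below both. The others below as deposited were Ifitm3 (39.7, 112 and 535 FPKM) and Ifitm2 (91.8, 237 and 563 FPKM), which block viral entry. The list's median difference was 0.00 against YUMM2.1 and -1.37 against YUMM1.7. Isg15, a ubiquitin-like protein, stood at 5.24, 5.38 and 212 FPKM. Ifi47, an interferon-induced GTPase not on that list, stood at 0.985, 14.3 and 10.9 FPKM.

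H2-M3, a class Ib molecule that presents formylated peptides, stood at 0.581, 12.97 and 7.78 FPKM. Among 19 expressed genes of MHC class I and antigen processing it was the only member, with 4 that were 1 or more below both lines and 0 above. H2-D1, a classical class I gene, was among them at 9.38, 22.9 and 109 FPKM. The peptide transporter Tap1 was near 0 in YUMM1.1, at 0.102, 1.61 and 1.25 FPKM. Tmem173, also called Sting1, the adaptor of cytosolic DNA sensing, stood at 0.432, 5.90 and 6.93 FPKM.

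Of 25 expressed chemokines and cytokines, 6 were 1 or more below both lines and 0 above, beside 2.26% and 2.5% of all expressed genes. Cxcl12, the ligand of the receptor Cxcr4, was the member among them at 0.839, 7.31 and 19.9 FPKM. Csf1, the macrophage growth factor, stood at 13.9, 52.6 and 41.8 FPKM. Il15 and Ccl5 were also among the 6, and Il15 stood at 0.307, 3.41 and 4.30 FPKM. Crlf2, a receptor chain for Tslp, stood at 0.149, 7.73 and 8.28 FPKM. The galectin Lgals3 stood at 26.9, 152 and 487 FPKM. Cd302, a C-type lectin, and Cd300lb, an activating receptor of myeloid cells, were members as well, and Cd300lb stood at 0.0885, 4.05 and 12.4 FPKM. Leukocyte markers summed to 5.37, 33.2 and 1.39 FPKM over 8 genes, and Ptprc, which marks all leukocytes, was listed at 0 in YUMM1.1. The part of such markers in these differences was not tested.

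Members that encode transcription factors included Hoxb7, Hoxd8 and Zeb1. Hoxb7, a homeobox gene of body position, was listed at 0 in YUMM1.1 and stood at 18.7 and 10.2 FPKM in the others. Hoxd8 stood at 0.0114, 4.39 and 4.49 FPKM. Zeb1, a repressor of epithelial genes, stood at 1.15, 8.11 and 8.71 FPKM. Of 13 expressed Hox genes, 5 were 1 or more below both lines and 0 above, and in all 13 YUMM1.1 was under 0.05 FPKM. The 3 others below both were Hoxb3, Hoxb4 and Hoxb6, so 4 of the 5 lie in the Hoxb cluster. Of 11 expressed factors of the epithelial-mesenchymal transition, Zeb1 alone was 1 or more below both lines and none was above, with 2 below after scaling to a common sum.

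Receptors and signaling proteins completed the lower group. Gng11, a G-protein gamma subunit, stood at 3.79, 68.5 and 138 FPKM. F2r, the thrombin receptor, stood at 0.131, 4.54 and 13.8 FPKM, and P2ry2, a nucleotide receptor, at 0.130, 4.61 and 9.50 FPKM. YUMM1.7 was highest for all 3. Pla2g4a, the cytosolic phospholipase that releases arachidonic acid, stood at 0.633, 13.02 and 24.4 FPKM. Pafah1b3, a subunit of platelet-activating factor hydrolase, stood at 1.27, 36.4 and 103 FPKM. The LIM-domain protein Pdlim2 stood at 3.80, 59.1 and 229 FPKM. Hspb2, a small heat shock protein whose gene overlaps Cryab, stood at 19.6, 105 and 89.5 FPKM. H1fx, a linker histone, stood at 0.890, 15.3 and 26.2 FPKM, and Tmem98, a membrane protein, at 0.0702, 8.44 and 23.5 FPKM. Ociad2, Hebp2, Insl6, Apbb1ip, Rftn2, Isoc2a and Itm2a were also members, and YUMM1.1 stood between 0.0179 and 2.27 FPKM for them. The 11 lower members set aside by symbol in the same way included 1110036O03Rik, described above. They also included the small nucleolar RNAs Snora75, Snora43 and Snora21 and the Cajal body RNA Scarna8, these RNAs all listed at 0 in YUMM1.1.

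**Figure D4:**
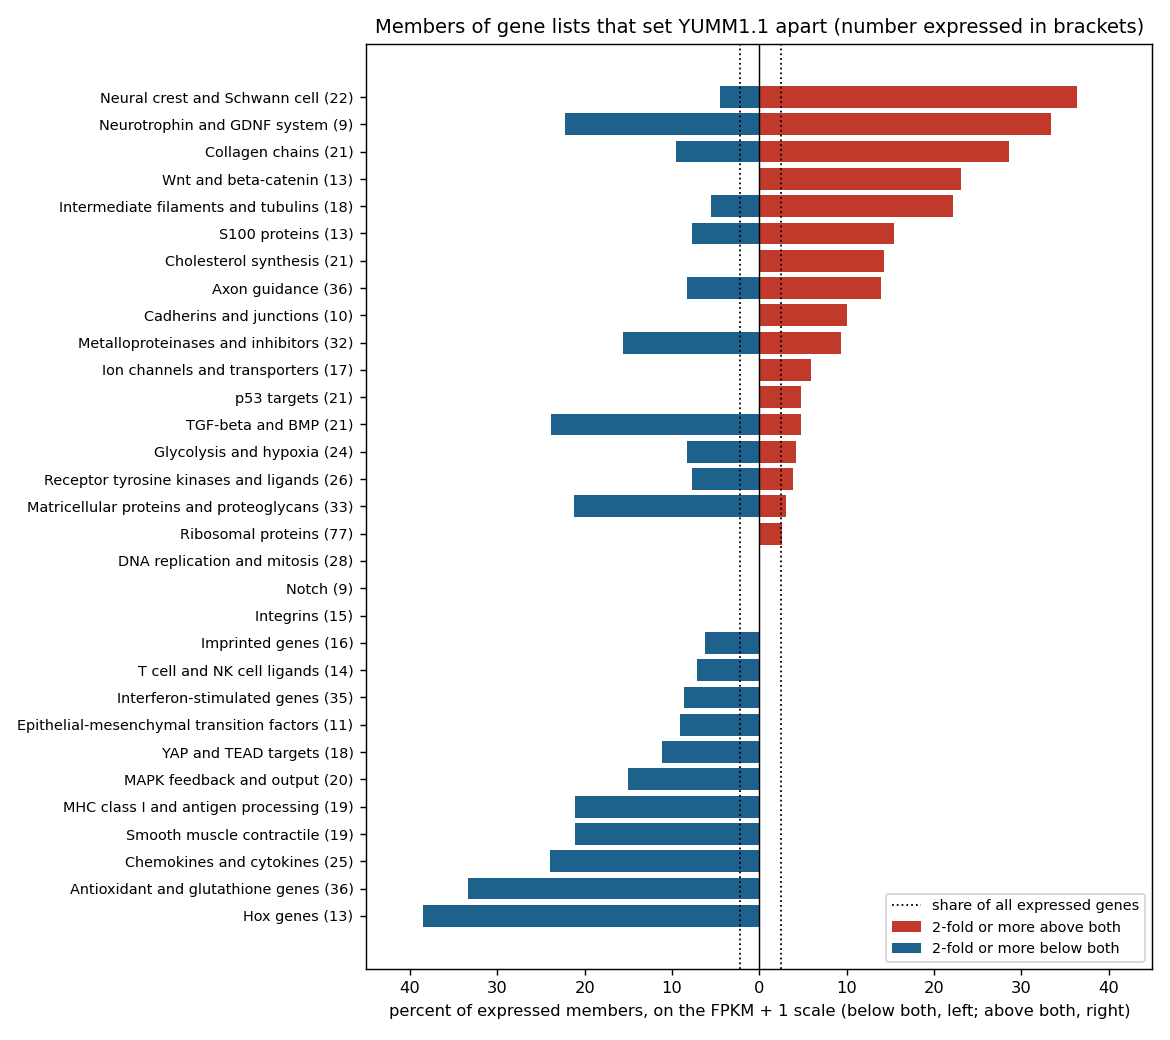
Bars give the percentage of expressed list members that were 1 or more above both lines or 1 or more below both lines in YUMM1.1. Gene lists with at least 9 expressed members are drawn, without the lists written after the members' values were seen. Dotted lines mark the same shares over all 11741 expressed genes, 2.5% above and 2.26% below. Among the lists drawn, the neural crest list is long on the side above, and the Hox and antioxidant lists on the side below. Ecel1 and Moxd1 were placed on the neural crest list with earlier results of these data known.

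Further lists held no member. None of 28 expressed genes of DNA replication and mitosis, of 15 integrins or of 9 Notch genes was 1 or more above or below both lines as deposited, and 1 Notch gene was above both after scaling to a common sum. Of 13 expressed genes of the Wnt pathway, 3 were above both and 0 below, beside 2.5% and 2.26% of all expressed genes. That 3 became 1 under the common sum and 2 under the upper quartile or the median ratio. Of 20 genes of MAPK feedback, 0 were above and 3 below, and of 18 YAP and TEAD targets 0 were above and 2 below. Of 77 ribosomal protein genes, 2 were above both and 0 below (0 and 0 under the common sum), with median differences of 0.77 against YUMM2.1 and -1.03 against YUMM1.7. Those medians belong to short, abundant transcripts. Members had median transcript lengths of 3062 nt in the higher group and 2178 nt in the lower, beside 3340 nt over all genes.

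Genes at the edge of the rule were close to it on both sides. Inside it on the higher side were V1rd20 at 2.03, Klk9 at 2.04 and Aldh1a3 at 2.06. Outside it lay LOC100503687 at 1.99, Sh3pxd2a at 1.95 and Hspg2 at 1.94. On the lower side Olfm1 at -2.01, Itm2a at -2.02 and Gsta3 at -2.04 were inside, and 1200009I06Rik at -1.996, Lefty1 at -1.99 and Hfe at -1.96 were outside.

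Values listed at 0 touched some members in each group. In the higher group 3 were listed at 0 in YUMM2.1 and 6 in YUMM1.7, 8 genes in all. In the lower group 6 were listed at 0 in YUMM1.1, of which 4 were small RNAs and the others were Hoxb7 and Gsta4. With every gene that had a value of 0 in any line left out, 11488 of the 11741 expressed genes remained. Of the members, 60 of 68 higher and 61 of 67 lower ones remained. A larger share of members than of all expressed genes was thus left out. Of all members, 16 overlap another expressed gene in the annotation used, so their reads may be shared in counting.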

How the data were processed

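Bulk RNA sequencing values were used for 3 mouse melanoma lines with 1 library each. The deposited table holds FPKM per gene symbol, computed by the authors. Per the submitters' processing notes, TopHat2 2.0.9, Cufflinks and Cuffnorm were used. Not given in the sources used here were the versions of the last pair, the genome build, the annotation and the strand setting. The log2 values used here were computed from the deposited FPKM as log2(FPKM + 1). Genes that reached 1 FPKM in 1 line or more were kept, 11741 of 25791 symbols. A difference of 2 or more from both other lines made a member, and gene lists were counted at a difference of 1. No test was possible with 1 library per line.

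Named genes were the 20 highest and 20 lowest members by the smaller difference, without predicted genes and small RNAs, together with members and partners of the gene lists. Predicted genes, small RNAs and pseudogenes were told by the form of the symbol, so genes that have since been named are among them. The members and the 47 lists were chosen with earlier results of these data known, and 11 lists were written after the members' values were seen. No list is independent support. Some genes that this rule names are among items that are left out here. Library depth was inferred from the spacing of low FPKM values in single-transcript genes of at least 3000 nt. A tolerance of 0.2 around whole multiples took in 77.2% of them in YUMM1.1, 79.7% in YUMM2.1 and 74.5% in YUMM1.7. The spacing was fitted to these same values, and such a tolerance takes in some values at any spacing. The shares are therefore no separate check of the depth. Transcript lengths, chromosomes and overlaps came from GENCODE and RefSeq for the mouse, which need not be the authors' annotation, and 95.4% of expressed symbols had a length. Promoters came from the RefSeq table for GRCm38.p6, and motifs were searched on both strands. The motifs were ACAAAG or ACAATG, an interferon response element, the CArG box, TATAAA and TGACNNNGC, where N is any base. Matches are descriptions of letters, not binding sites. Of the 135 members, 44 higher and 41 lower ones had a promoter entry. Alternatives were other pseudocounts, filters, thresholds and scalings. The rule was tested on simulated data with counting noise only, so that test does not cover a spread between cultures or libraries. Computation was in Python 3.11.15, with the packages numpy 2.4.6, matplotlib 3.10.9 and pandas 2.3.3.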

Additional observations from a re-analysis of the deposited data

How the results depend on the processing

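The counts of members depended most on the pseudocount and the threshold. A pseudocount of 0.1 gave 129 higher and 253 lower genes and one of 5 gave 28 and 18. A difference of 1 gave 294 and 265, and one of 3 gave 24 and 29. Leaving out genes that overlap another gene, an alternative added after the data were seen, gave 41 and 44 of 6470 genes, where fewer genes were tested by construction. For the other settings the cause was not tested. The counts stayed within 1.5 times of 68 and 67 with no filter (68 and 67), a filter at 5 FPKM (63 and 65), scaling to a common sum (53 and 81), to the upper quartile (63 and 72) or by the median ratio (67 and 68), and without predicted genes (61 and 56), genes listed at 0 (60 and 61) or transcripts under 1000 nt (61 and 52). Under the common sum, 50 of the 68 and 54 of the 67 were shared with the members. Of the members, 23 higher and 18 lower met the rule under all 5 pseudocount and scaling settings. No paired analysis was possible because each line has 1 library and the labels carry no replicate numbers, and no replicate could be left out. The depth limits values near 0.02 FPKM, which rest on about 3 fragments.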

Other observations

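Some members lie next to each other. Within 100 kb of another member there were 6 pairs among the 128 members with a known place, and 5 of the 6 pairs shared a direction. Among the 5 are Pcdhgb1 with Pcdhgb6, which share exons, and Ly6a with Ly6c1, whose reads may be shared. The rate of such pairs over all expressed genes was not computed, so these counts do not show clustering. Besides the pairs named above, Plvap and Bst2 lie 22.4 kb apart on chromosome 8 and both were lower in YUMM1.1. The pair that differed was Mmp2 and Lpcat2, 1.892 kb apart on chromosome 8. Mmp2 was 2.06 lower in YUMM1.1 than in the nearer line and Lpcat2 was 2.42 higher (log2). The letters TATAAA occurred in 9 of 41 matched lower promoters, among them Spp1 and Cav1, in 5 of 44 matched higher ones, in 12.4% of all promoters and in 7.74% of those of expressed genes. TGACNNNGC occurred in 6 of 41 matched lower promoters and in 8 of 44 matched higher ones. It was present in 10.2% of all promoters and in 14.04% of those of expressed genes.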
